A study of Mus musculus with 40 samples.

Results

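The Hox genes encode homeodomain transcription factors, and mammals carry them in 4 clusters named Hoxa, Hoxb, Hoxc and Hoxd. Each gene has a number, its paralogue group, which gives its place along the cluster, and genes with the same number in different clusters are copies of one ancestral gene. In the embryo low-numbered genes act towards the head and high-numbered genes towards the tail and the ends of the limbs, and adult connective tissue and epithelium keep much of this positional pattern. Polycomb proteins hold clusters silent and Trithorax proteins keep them active, while Pbx and Meis proteins bind DNA together with Hox proteins. In mice, Hoxa9, Hoxb9 and Hoxd9 are jointly required for the growth of the mammary gland in pregnancy. Members here were all genes with a Hoxa, Hoxb, Hoxc or Hoxd symbol and a number whose probe set on the array carried exactly 1 gene symbol. This gave 33 of 18193 genes: 9 on chromosome 6 (Hoxa), 9 on chromosome 11 (Hoxb), 7 on chromosome 15 (Hoxc) and 8 on chromosome 2 (Hoxd). Where a gene had several probe sets, the one with the highest mean over all arrays stood for it. Other Hox genes were not analysed here.

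Mammary tissue of 40 mice was measured, 1 array per mouse, in 8 groups of 5. The group wild_type held BalbC mice without a transgene. All other groups were WAP-TNP8 transgenic mice, in which the promoter of the whey acidic protein gene drives the SV40 T and t antigens in mammary epithelial cells once the animal lactates. The group before_activation held such mice before a lactation, 1M to 5M held glands taken from 1 to 5 months after activation, and invasive_tumour held tumours. The tumours came from mice of the 2 latest time points. The groups wild_type and before_activation together are called the controls (10 arrays). The other 7 groups are called glands where they are set against the tumours (35 arrays, controls included). No group held wild type glands after a lactation, so an active transgene and a past lactation cannot be told apart. The labels give neither the ages of the mice nor which gland pair was taken. Every level below is log2 of the deposited intensity of 1 probe set, and levels of different genes are not compared because each probe set has its own response. A gene was called where limma's adjusted p over all 45037 tested probe sets was at most 0.05.

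Luminal, basal, fibroblast and fat cell marker lists all gave array means above 10 in the glands. The fat cell list had array means from 12.20 to 14.29 in glands and from 5.94 to 10.13 in the tumours. On 33 arrays the Dap spike-in control was at 8.60 or more and on the rest at 4.64 or less, with only 1 of 5 arrays of 5M on the high side. Markers of T cells were high on 14 arrays and markers of skeletal muscle on 4. Because the arrays measured bulk tissue, fewer cells of a type and less RNA per cell cannot be told apart.

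The promoter table of RefSeq (build GRCm38.p6) held 19 of the 33 genes with 21 start sites. The 250 bases before the start are shown for Hoxa9 and Hoxd9, which fell strongly in the tumours. They are also shown for Hoxa7, which fell in the tumours and had the largest called fall in glands after activation. Hoxd9 fell in those glands too, by less. Hoxa5, in the same cluster as Hoxa9 and Hoxa7, is shown as well and fell least of these in the tumours. Capitals mark CpG dinucleotides, the sites at which mammalian DNA is methylated, and all runs are written 5′ to 3′ on the strand of the gene. The Hoxa genes lie on the minus strand at chr6:52227371-52227620 (Hoxa9), chr6:52218574-52218823 (Hoxa7) and chr6:52204588-52204837 (Hoxa5), and Hoxd9 lies on the plus strand at chr2:74697513-74697762.
Hoxa9: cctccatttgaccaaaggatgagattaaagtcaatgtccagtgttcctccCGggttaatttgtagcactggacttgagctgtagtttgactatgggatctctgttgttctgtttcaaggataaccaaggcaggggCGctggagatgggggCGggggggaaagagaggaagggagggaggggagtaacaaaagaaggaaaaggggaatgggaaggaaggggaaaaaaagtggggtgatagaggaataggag
Hoxa7: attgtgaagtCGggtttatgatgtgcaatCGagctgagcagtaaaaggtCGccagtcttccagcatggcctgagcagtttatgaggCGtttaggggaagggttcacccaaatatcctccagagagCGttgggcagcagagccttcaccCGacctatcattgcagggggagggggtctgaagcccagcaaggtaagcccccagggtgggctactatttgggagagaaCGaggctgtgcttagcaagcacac
Hoxa5: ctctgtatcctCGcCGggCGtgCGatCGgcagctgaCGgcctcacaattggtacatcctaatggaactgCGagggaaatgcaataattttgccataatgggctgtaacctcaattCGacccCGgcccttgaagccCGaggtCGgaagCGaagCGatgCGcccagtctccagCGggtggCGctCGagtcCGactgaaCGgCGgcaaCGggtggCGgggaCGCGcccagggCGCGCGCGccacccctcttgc
Hoxd9: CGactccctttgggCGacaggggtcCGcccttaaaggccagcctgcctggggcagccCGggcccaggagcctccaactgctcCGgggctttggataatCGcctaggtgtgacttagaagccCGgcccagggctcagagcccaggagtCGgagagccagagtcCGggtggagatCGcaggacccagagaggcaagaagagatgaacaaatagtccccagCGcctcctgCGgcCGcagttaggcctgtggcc
Hoxa9 had 3 CpG sites in this window, Hoxa7 had 7, Hoxd9 had 13 and Hoxa5 had 28. Of all 32851 promoters in the table, 29.0% had fewer CpG sites than Hoxa9 and 92.4% had fewer than Hoxa5. Across the 21 member promoters the number ran from 2 to 35 with a median of 13, against a median of 6 over all promoters. The letters TGATNNAT, a joint site of Pbx and Hox proteins, were searched on both strands and occurred in 3 of the 21 windows (Hoxa2, Hoxb1 and 1 start of Hoxd11), while 7.68% of all windows held them. The TATA letters TATAAA occurred in 2 of the 21 (1 start of Hoxa10, and Hoxd13) and in 12.4% of all windows. None of the 4 windows printed held either motif. DNA methylation and binding were not measured in these mice.

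Which Hox genes gave signal in this tissue, by the probe sets used, differed along the clusters. In 14 of the 33 genes every group mean was below 3.5, between 1.99 and 3.38, the low end of the arrays, where 52.2% of all tested probe sets had an overall mean below 5. These were Hoxa2, Hoxa11 and Hoxa13, Hoxb1, Hoxb2, Hoxb7, Hoxb9 and Hoxb13, Hoxc13, and Hoxd1, Hoxd3, Hoxd11, Hoxd12 and Hoxd13. So the outermost measured genes of the Hoxa and Hoxd clusters were not above this range, and no member with a number of 11 or more was. Hoxa3, Hoxa4, Hoxb6 and Hoxd10 had a highest group mean between 3.5 and 5. The remaining 15 genes reached 5 in at least 1 group: Hoxa5, Hoxa7, Hoxa9 and Hoxa10 of 9 in the A cluster, Hoxb3, Hoxb4 and Hoxb5 of 9 in B, Hoxc4, Hoxc5, Hoxc6, Hoxc8, Hoxc9 and Hoxc10 of 7 in C, and Hoxd8 and Hoxd9 of 8 in D. Detection calls were not used here, so a gene at the low end cannot be called absent. A low level can also come from the probe set. Hoxa9 had means over all arrays of 10.2 and 2.13 by different probe sets, and Hoxc5 of 7.28 and 2.54.

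**Figure D1:**
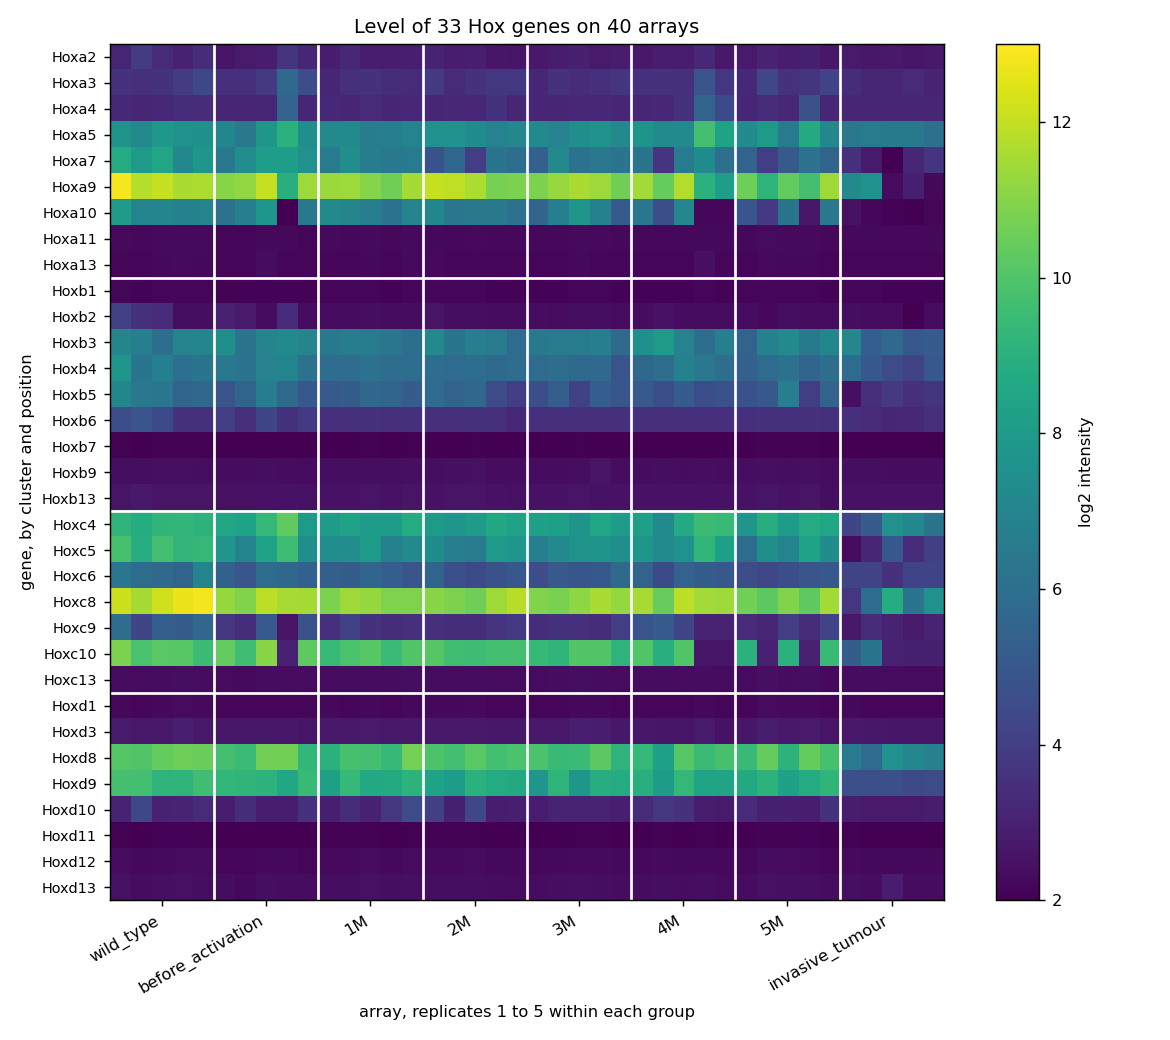
Colour gives the log2 intensity of the 33 Hox genes (rows, by cluster and position) on the 40 arrays (columns, replicates 1 to 5 within each group); white lines part groups and clusters. Most Hoxc rows and a band of rows inside each of the other clusters change from bright to dim in the 5 invasive_tumour columns, and 5 gland columns are dark for Hoxc10 and Hoxa10.

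Over the 8 groups, limma's F test called 17 of the 33 Hox genes, a count near the 49.3% of all genes that were called. Each of the 17 had its lowest group mean in invasive_tumour. How many of all called genes had theirs there was not counted. The highest F value was that of Hoxd9 (73.6, adjusted p = 2.93e-15), followed by Hoxc5 (26.0) and Hoxc8 (25.9).

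The comparison of the tumours with the controls asked which genes differ in invasive disease. Here 16 of the 33 Hox genes fell and 0 rose, against 20.6% lower and 19.5% higher among all genes tested. No Hox gene was higher at an unadjusted p under 0.05 either, where 22.6% of all genes were, and the methods' t-test, which lets the variances of the groups differ, also gave 0 higher and 18 lower. The median difference of the 33 was -0.70, against -0.01 over all genes. By cluster 4 of 9 Hoxa, 4 of 9 Hoxb, 6 of 7 Hoxc and 2 of 8 Hoxd genes fell. By position 1 of 7 anterior (groups 1 to 3), 10 of 12 central (4 to 8) and 5 of 14 posterior genes (9 to 13) fell. Level and position cannot be told apart here, since most anterior and posterior members lay at the low end in every group, where a fall cannot be measured. All 14 members with a mean over all arrays of at least 5 fell (1 anterior, 9 central and 4 posterior), where 31.0% of all genes with such a mean did, and 2 of the other 19 fell. At the study's own thresholds of an adjusted p of at most 0.01 and a 5-fold change, 10 of the 33 were lower by limma, while 5.9% of all genes were, and the methods' t-test gave 7 of the 33. In 10 of the 16 that fell, no tumour array overlapped a control array, and this held for 59.7% of all genes that fell, so the share was near the background.

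Among the posterior genes, Hoxa9, which with its paralogues patterns the upper limb segment and acts in pregnancy growth of the gland, was at 7.21, 7.59, 2.33, 2.96 and 2.22 in tumours 1 to 5. In the controls it ran from 8.95 to 12.83 with a median of 11.63. All 5 tumours lay below all 10 controls, and they were far apart, with 2 of them well above the other 3. The log2 difference was -6.99 ± 0.91 (SE, adjusted p = 2.86e-05, limma), the largest fall of any member in this comparison. Hoxd9 values were close together instead, at 4.67, 4.67, 4.67, 4.42 and 4.53 in the tumours and between 8.53 and 9.76 (median 9.24) in the controls. Its difference was -4.70 ± 0.16 (adjusted p = 2.35e-10), a 26.0-fold fall with no overlap. Tumour values this close together may lie at the floor of the probe set, and the fold size would then depend on that floor. This was not tested. The third measured paralogue, Hoxc9, fell by 1.59 ± 0.47 (adjusted p = 0.0176), and against before_activation alone it differed by -0.90 ± 0.44 and did not pass (adjusted p = 0.192). Hoxb9 stayed at the low end with means of 2.39 in both groups.

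Hoxa10, required in the mouse uterus for implantation, was between 1.79 and 2.48 in all 5 tumours and between 2.02 and 8.05 (median 6.89) in the controls. The 2 groups overlapped because of 1 control array, before_activation 4, at 2.02. Its difference was -4.34 ± 0.74 (adjusted p = 0.000314). Hoxc10, which marks lumbar levels of the embryo, was at 5.24, 6.29, 2.99, 2.98 and 2.95 in tumours 1 to 5 and between 3.00 and 11.06 (median 10.16) in the controls, again with before_activation 4 as the lone low control. Its difference was -5.39 ± 1.12 (adjusted p = 0.00161), and against before_activation alone it was -4.77 ± 1.57 and did not pass (adjusted p = 0.0588). The paralogue Hoxd10 had means of 2.82 ± 0.01 (SD, n = 5) and 3.24 ± 0.48 (n = 10) and did not pass (adjusted p = 0.162).

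**Figure D2:**
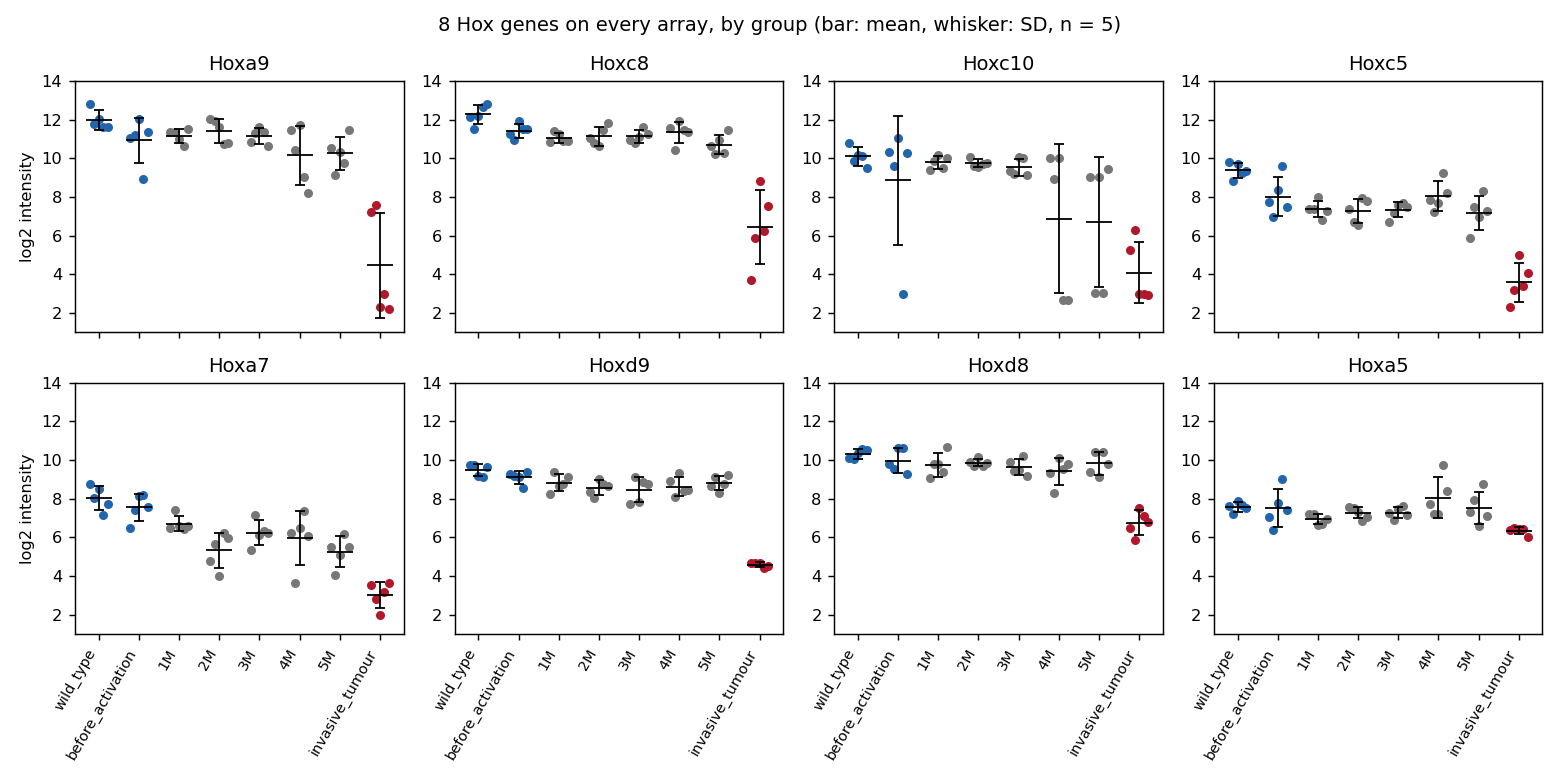
Each point is the log2 intensity of 1 array for 8 Hox genes, with group means (bars) and SD (whiskers, n = 5); controls are blue, glands after activation grey, tumours red. Tumours lie below every gland array for Hoxa9, Hoxc8, Hoxc5, Hoxa7, Hoxd9 and Hoxd8, and Hoxc10 splits the arrays of before_activation, 4M and 5M.

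Of the central genes, Hoxc8, which sets thoracic identity in the vertebral column and spinal cord, was at 3.73, 5.89, 8.82, 6.22 and 7.56 in the 5 tumours and between 10.93 and 12.81 (median 11.73) in the controls. Every tumour was lower than every control, and the tumours covered a range wider than that of all 35 glands (10.25 to 12.81). The difference was -5.41 ± 0.62 (adjusted p = 9.29e-06). Its paralogue Hoxd8 fell by 3.38 ± 0.29 (adjusted p = 4.98e-07), with tumours at 6.48, 5.86, 7.54, 7.09 and 6.81 and controls from 9.27 to 10.64 (median 10.24). Hoxa7 was at 3.52, 2.80, 2.00, 3.20 and 3.66 in the tumours and between 6.46 and 8.78 (median 7.88) in the controls, a difference of -4.76 ± 0.36 (adjusted p = 1.84e-07) without overlap. Of the group 7 paralogues only Hoxb7 was also measured, and it was at the low end in all groups.

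Hoxc5, a gene of lower neck and forelimb levels, was at 2.30, 3.19, 5.01, 3.38 and 4.10 in the tumours and between 6.95 and 9.81 (median 9.03) in the controls. The groups did not overlap, and the difference was -5.11 ± 0.54 (adjusted p = 4.11e-06). Its paralogue Hoxb5, a marker of long-lived blood stem cells in mice, was at 2.46, 3.48, 3.85, 3.51 and 3.64 in the tumours and between 4.82 and 7.04 in the controls (-2.49 ± 0.35, adjusted p = 5.45e-05). Hoxa5, needed for the lungs of newborn mice, fell by 1.20 ± 0.30 (adjusted p = 0.00601). The tumours were close together for Hoxa5, between 6.04 and 6.47, while the controls ran from 6.40 to 9.03. Against before_activation alone the difference of Hoxa5 was -1.18 ± 0.43 and did not pass (adjusted p = 0.0812).

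Hoxc4 was at 4.30, 5.16, 7.56, 7.14 and 6.27 in tumours 1 to 5 and between 7.99 and 10.32 (median 9.14) in the controls, and its difference was -2.92 ± 0.49 (adjusted p = 0.000264). Its paralogue Hoxb4, which enlarges blood stem cell pools when overexpressed, was at 5.83, 5.04, 4.54, 4.27 and 5.02 in the tumours and between 6.01 and 7.79 in the controls (-1.62 ± 0.30, adjusted p = 0.000545). Hoxa4 had means of 3.18 and 3.47 and did not pass (adjusted p = 0.616). Tumours were below all controls for Hoxc4 and Hoxb4. Hoxc6 was at 4.25, 4.24, 3.56, 4.23 and 4.23 in the tumours and between 4.96 and 6.98 in the controls. It fell by 1.69 ± 0.26 (adjusted p = 0.000133) and Hoxb6 by 0.68 ± 0.23 (adjusted p = 0.0315), to a mean of 3.36 near the low end. Hoxb3 was the one anterior gene called (-1.18 ± 0.32, adjusted p = 0.00925), with 7.11, 5.27, 5.77, 5.04 and 5.21 in the tumours and 5.98 to 7.47 in the controls. Tumour 1 was above the control mean of 6.86, so that Hoxb3 was lower in 4 of 5 tumours. Hoxb3 passed against neither control group alone (adjusted p = 0.0829 with wild_type and 0.0511 with before_activation). The other 15 called genes were lower than the control mean in 5 of 5 tumours.

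The tumours were not alike in their Hox levels. Tumours 1 and 2 kept Hoxa9 above 7 and Hoxc10 above 5, with Hoxc8 at 3.73 and 5.89 and Hoxc4 at 4.30 and 5.16. Tumours 3, 4 and 5 had Hoxa9 below 3 and Hoxc10 below 3, with Hoxc8 from 6.22 to 8.82 and Hoxc4 from 6.27 to 7.56. The fat cell list was at 5.94, 7.29, 10.13, 7.82 and 8.93 in tumours 1 to 5, the same order of tumours as for Hoxc8. Hoxa9 and Hoxc10 did not have that order. All these are values of single tumours, chosen after they were seen, and no test was made between them. The part of fat cells in these differences was not tested.

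Several cell type markers moved with the same comparison. All 6 milk genes rose and all 9 measured fat cell markers fell, as did 10 of 10 endothelial markers (array means 6.45 to 7.22 in tumours, 9.41 to 9.92 in controls) and 8 of 10 fibroblast markers (10.30 to 11.33 and 12.63 to 13.53). Of 10 markers of basal and myoepithelial cells 9 fell (7.64 to 8.47 and 10.67 to 12.01). Of 11 luminal markers 4 rose and 4 fell (10.69 to 12.02 and 11.58 to 12.58). The part of these cell types in the fall of the Hox genes was not tested.

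The tumours were also set against the 10 arrays of 4M and 5M, a comparison that uses no control array but the same tumours. Of the 33 Hox genes 13 fell and 0 rose (0 higher at an unadjusted p under 0.05, where 19.4% of all genes were, and 0 higher by the methods' t-test), against 16.2% lower and 14.9% higher among all genes. The largest differences were those of Hoxa9 (-5.75 ± 0.95, adjusted p = 0.000442), Hoxc8 (-4.59 ± 0.62, adjusted p = 8.98e-05) and Hoxd9 (-4.13 ± 0.19, adjusted p = 1.72e-08). Hoxc5 fell by 4.02 ± 0.50 and Hoxd8 by 2.86 ± 0.34. Hoxb6, also among the 13, fell by only 0.17 ± 0.05, from 3.54 to 3.36, near the low end of the arrays. Leaving aside the fits without 1 array, it lost its call in 6 alternative settings and kept it in 5. In the fits without 1 array Hoxb6 lost its call in 2 and kept it in 13. Hoxa10, also among the 13 called genes, lost its call in 11 of those fits and kept it in 4. Hoxa7 differed by -2.58 ± 0.53 here and by -4.76 ± 0.36 against the controls. The Hoxc10 difference of -2.70 ± 1.57 did not pass (adjusted p = 0.275), with 4M and 5M arrays from 2.67 to 10.02. Without the muscle-rich arrays described below, it was -4.36 ± 1.26 (adjusted p = 0.0337). All of those arrays were low in Hoxc10, so leaving them out raised the 4M and 5M mean from 6.79 to 8.45. That fit is therefore no separate check. Without all glands low in Hoxc10, also described below, the Hoxc10 difference was -5.32 ± 0.65. Those glands were left out by their own Hoxc10 level, so this larger difference follows from the choice and is no test. Of the 13 genes, 9 had every tumour below every array of 4M and 5M, as had 47.6% of all genes that fell. Fat cell (9 of 9), endothelial (10 of 10), basal (9 of 10) and fibroblast markers (7 of 10) fell in this comparison too. The milk genes Csn1s2a, Csn2, Lalba, Csn1s1 and Wap fell here, although they rose against the controls, and Csn3 did not pass. Of the luminal markers, Pgr, Esr1, Foxa1, Krt19 and Elf5 fell, and Epcam and Cdh1 rose. The part of these cell types and of milk production was not tested.

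**Figure D3:**
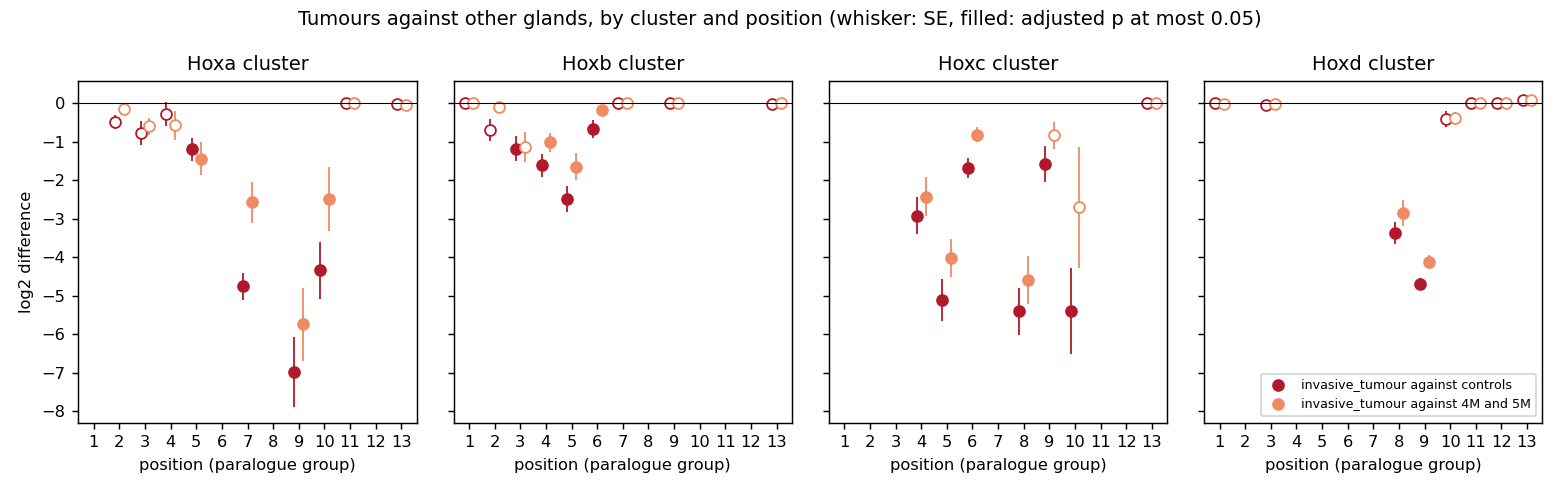
Log2 differences (vertical axis, ± SE) of the 33 Hox genes by position in the 4 clusters, for invasive_tumour against controls (red) and against 4M and 5M (orange); filled points passed an adjusted p of 0.05. The falls lie between positions 3 and 10, and the genes at positions 11 to 13 and at position 1 lie at 0.

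The early comparison, 2M and 3M against the controls, found 8 of 33 Hox genes lower and 0 higher (0 higher at an unadjusted p under 0.05, where 13.8% of all genes were, and 0 higher and 6 lower by the methods' t-test), where 9.04% of all genes were lower and 7.79% higher. These were Hoxa7, Hoxb4, Hoxb6, Hoxc4, Hoxc5, Hoxc6, Hoxc8 and Hoxd9, of which 7 are central genes. In the fits without 1 array Hoxc8 lost its call in 12 and kept it in 8. This comparison, those of 1M and of 4M and 5M, and the first tumour comparison share their control arrays, so they are not independent of each other.

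Hoxa7 was at 4.78, 5.65, 4.01, 6.25 and 5.96 in 2M and at 5.36, 7.16, 6.12, 6.34 and 6.25 in 3M, against 6.46 to 8.78 in the controls. Only 1 of these 10 arrays was within the range of the controls. The difference was -2.01 ± 0.35 (adjusted p = 0.000768). Hoxc5 fell by 1.40 ± 0.35 (adjusted p = 0.0120) and Hoxc4 by 0.86 ± 0.22 (adjusted p = 0.0124), both with overlap between the groups. Hoxb4 fell by 0.80 ± 0.19 (adjusted p = 0.00975) and was the one called gene whose groups did not overlap (2.92% of all genes called lower), with 4.87 to 5.96 in 2M and 3M and 6.01 to 7.79 in the controls. Hoxa9, Hoxc10, Hoxa10 and Hoxa5 were not called by the probe sets used.

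The count depended on which controls were used. Against wild_type alone 13 Hox genes were lower, and against before_activation alone 2 were, Hoxa7 and Hoxb4. The shares of all genes called in these 2 fits were not counted, so whether the change is particular to the Hox genes cannot be told. Without the arrays high in T cell markers, which include 4 of the 5 arrays of 2M, 4 were lower (Hoxa7, Hoxc4, Hoxc5 and Hoxd9). Of 9 fat cell markers 7 and of 10 endothelial markers 5 fell in the same comparison, with fat cell list means from 12.31 to 13.58 against 13.09 to 14.29 in the controls. All 6 milk genes rose, with list means from 12.38 to 14.32 in 2M and 3M and from 4.39 to 8.11 in the controls. Of 11 luminal markers 4 rose, Elf5 (2.86 ± 0.26), Ehf (2.04 ± 0.34), Epcam (1.09 ± 0.18) and Cdh1 (0.80 ± 0.20). Another 4 fell, Foxa1 (-1.59 ± 0.20), Esr1 (-0.95 ± 0.21), Pgr (-1.44 ± 0.40) and Krt19 (-0.78 ± 0.24). The part of these cells and of milk production in the Hox differences was not tested.

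In the late comparison, 4M and 5M against the controls, 6 of 33 Hox genes were lower and 0 higher (0 higher at an unadjusted p under 0.05, where 2913 of all 18193 genes were, and 0 higher and 3 lower by the methods' t-test), against 9.86% lower and 10.7% higher among all genes. Hoxa7 differed by -2.18 ± 0.40 (adjusted p = 0.00105), with 6.25, 3.66, 6.48, 7.37 and 6.05 in 4M and 5.50, 4.05, 5.10, 6.20 and 5.49 in 5M. All 10 were below the control mean of 7.80, and 2 of them, both of 4M, were within the range of the controls. Hoxc6 fell by 0.86 ± 0.21 (adjusted p = 0.00865), Hoxc8 by 0.81 ± 0.26 (adjusted p = 0.0431), Hoxd9 by 0.57 ± 0.17 (adjusted p = 0.0282), Hoxb6 by 0.51 ± 0.16 (adjusted p = 0.0329), and Hoxb2, a gene of the embryonic hindbrain, by 0.60 ± 0.19 (adjusted p = 0.0404) from a control mean of 2.98 to 2.38, within the low end of the arrays. Hoxb6, with a mean of 3.54 in 4M and 5M, lay near the low end too. In the fits without 1 array Hoxc8 lost its call in 11 and kept it in 9, and Hoxb2 lost its call in 13 and kept it in 7. Against before_activation alone Hoxa7 was the one Hox gene called, and against wild_type alone 11 were, again without a count over all genes. Without wild_type replicate 1, and likewise without wild_type replicate 3, 3 were lower. Fat cell (6 of 9) and endothelial markers (6 of 10) fell beside them, all 6 milk genes rose, and of 11 luminal markers 5 rose and 3 fell. The part of these was not tested.

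**Figure D4:**
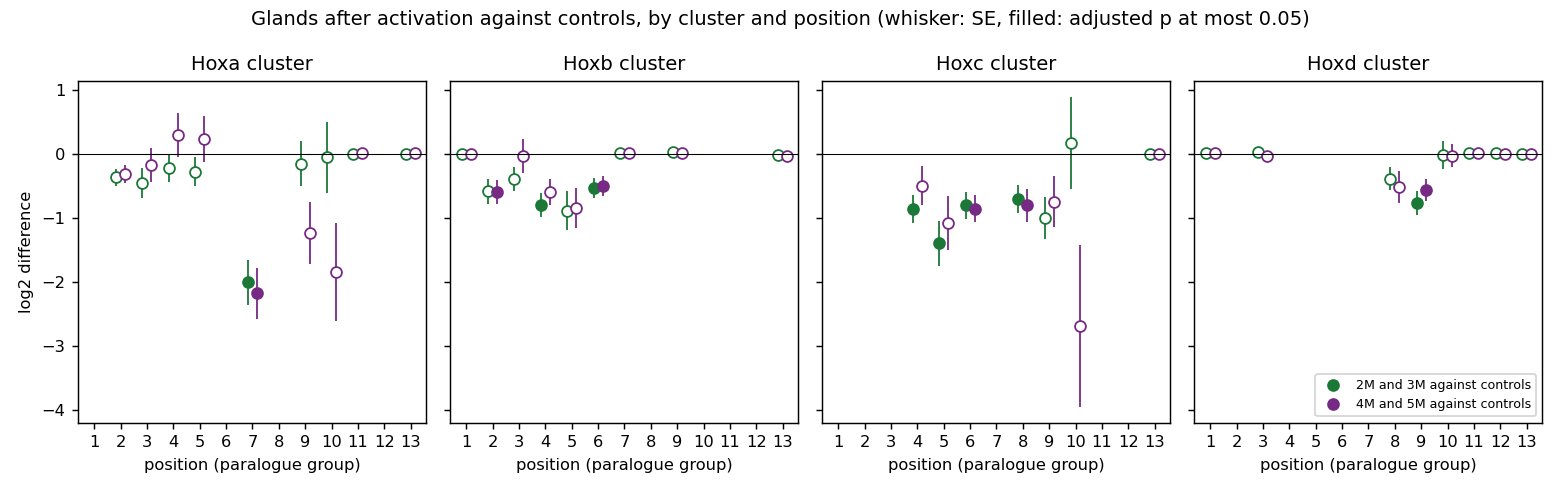
Log2 differences (± SE) of the 33 Hox genes by position in the 4 clusters, for 2M and 3M (green) and for 4M and 5M (purple) against the same 10 controls; filled points passed an adjusted p of 0.05. Hoxa7 lies lowest of the filled points in both, near -2, and Hoxc10 in 4M and 5M has the widest whisker.

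Across all groups in turn, Hoxc8 had means of 12.27 ± 0.51 (SD, n = 5 here and below) in wild_type, 11.43 ± 0.37 in before_activation, then 11.06 ± 0.27, 11.14 ± 0.48, 11.14 ± 0.32, 11.36 ± 0.54 and 10.72 ± 0.51 from 1M to 5M, and 6.44 ± 1.91 in invasive_tumour. Hoxd9 went from 9.48 ± 0.30 and 9.11 ± 0.34 in the control groups through 8.83 ± 0.43, 8.58 ± 0.38, 8.46 ± 0.64, 8.63 ± 0.48 and 8.82 ± 0.36 to 4.59 ± 0.11. For both genes the step from 5M to the tumours was larger than any SD given, and neighbouring groups from 1M to 4M had means less than 1 SD apart. Hoxa7 differed from this pattern, with 8.04 ± 0.64 and 7.55 ± 0.70 in the control groups, 6.71 ± 0.40 at 1M, 5.33 ± 0.92, 6.25 ± 0.64, 5.96 ± 1.38 and 5.27 ± 0.79 from 2M to 5M, and 3.04 ± 0.66 in invasive_tumour.

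A comparison of 4M and 5M against 2M and 3M was added after the values were seen. No Hox gene was called by limma, 3 were at an unadjusted p under 0.05, and among all genes 0.236% were higher and 0.379% lower. The 3 were Hoxa9 (-1.08 ± 0.40), Hoxa10 (-1.79 ± 0.62) and Hoxc10 (-2.86 ± 1.06), the genes in which single arrays of 4M and 5M were low.

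At 1M, the glands closest to lactation, 0 of 33 Hox genes passed in either direction by limma and by the methods' t-test. Among all genes 4.24% were higher and 1.54% lower. At an unadjusted p under 0.05, 9 Hox genes were lower and 0 higher, against 9.14% lower and 12.3% higher among all genes. Among the 9 were Hoxa7 (6.71 against 7.80, difference -1.08 ± 0.32, adjusted p = 0.0841) and Hoxc5 (7.38 against 8.71, difference -1.33 ± 0.47, adjusted p = 0.150). Against wild_type alone, 6 Hox genes were lower, and the share of all genes in that fit was not counted.

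Between before_activation and wild_type, 2 groups that both lack an active transgene, 0 of 33 Hox genes passed by limma, and 0.0% of all genes were higher and 0.0% lower. At an unadjusted p under 0.05, 14 Hox genes were lower and 0 higher. The methods' t-test called 8 lower, all of them genes at the low end of the arrays, and its share over all genes was not counted. Of those 14, 11 were genes at the low end with differences from -0.05 to -0.10, and over all genes 4715 (25.9%) were lower and 575 (3.16%) higher at that p, with a median difference of -0.06. The other 3 were Hoxc5 (8.03 ± 1.02 against 9.39 ± 0.39, SD, n = 5 each), Hoxc8 (11.43 ± 0.37 against 12.27 ± 0.51) and Hoxc9 (3.92 ± 1.00 against 5.28 ± 0.62), with adjusted p of 0.107, 0.106 and 0.112.

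Within the glands, Hoxc10 fell into 2 separate ranges. It was between 8.95 and 11.06 on 30 of the 35 gland arrays and between 2.67 and 3.02 on the other 5. These 5 were before_activation 4 (3.00), 4M replicates 4 (2.68) and 5 (2.67), and 5M replicates 2 (3.02) and 4 (3.02). No array lay between.

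The same 5 arrays stood apart in 3 other members. Hoxa10 was at 2.02, 2.15, 2.14, 3.82 and 2.71 on them, in the order just given, and between 4.64 and 8.05 on the other 30. Hoxa9 was at 8.95, 9.02, 8.18, 9.16 and 9.77, below the 10.35 to 12.83 of the rest. Hoxa5 went the other way, at 9.03, 9.76, 8.38, 7.93 and 8.74, above the 6.40 to 7.87 of the rest. So 2 posterior genes beside Hoxc10 were lower and 1 central gene was higher on these arrays, with no overlap. Among all 18193 genes, 3 (0.0165%) were lower on all 5 arrays than on any of the other 30, and these 3 were Hoxc10, Hoxa10 and Hoxa9, while 24 (0.132%) were higher, Hoxa5 among them.

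Some neighbours leaned to the same sides with overlap. Hoxa4 was at 5.44, 5.51, 4.46, 3.35 and 4.71 on the 5 arrays and between 3.14 and 3.60 on the rest, and Hoxc4 was at 10.32, 9.55, 9.44, 8.86 and 8.75 against 7.25 to 9.35. Hoxc9 was between 2.59 and 3.40 against 3.35 to 5.95. Hoxc8 (10.25 to 11.54 against 10.45 to 12.81) and Hoxd9 (8.42 to 9.13 against 7.75 to 9.76) lay within or near the range of the others. These arrays were found by their Hoxc10 level, so the split in Hoxc10 is a description, and no test was made on it.

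**Figure D5:**
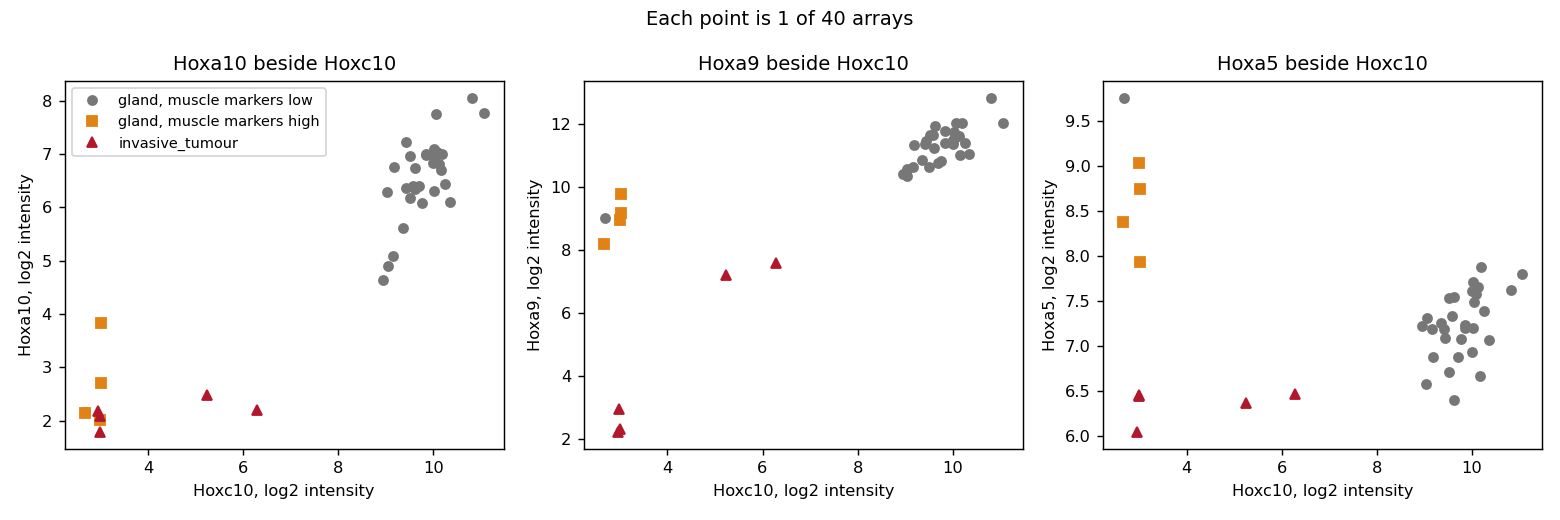
Each point is 1 of the 40 arrays, with Hoxc10 on the horizontal axis and Hoxa10, Hoxa9 or Hoxa5 on the vertical axis (log2 intensity); orange squares are the 4 gland arrays high in skeletal muscle markers. The 5 glands with Hoxc10 near 3 are low in Hoxa10 and Hoxa9 and high in Hoxa5, while tumours are low in Hoxa5 as well.

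Skeletal muscle genes moved with this split. The mean of the 10 muscle markers was 12.57, 14.04, 14.38 and 14.82 on before_activation 4, 4M replicate 5, 5M replicate 2 and 5M replicate 4, and at most 10.30 on every other array. The fifth array, 4M replicate 4, had a muscle mean of 5.66 and yet the Hox levels given above. The fat cell list (12.34 to 13.83) and the luminal list (12.13 to 12.63) lay within the range of the other 30 glands on all 5 arrays. The fibroblast list ran from 11.99 to 12.95 on them and from 12.20 to 13.53 on the rest, so that its lowest array was 1 of the 5. Which gland pair these samples came from is not in the labels, and the part of the dissection was not tested.

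Leaving these 5 arrays out, a step added after the values were seen, gave 17 lower Hox genes in tumours against controls and 15 against 4M and 5M, 9 in 2M and 3M, and 1 (Hoxa7) in 4M and 5M. Hoxc10 is among the 15, and its own level chose the arrays, so its call there is no test. With the 4 muscle-rich arrays left out, the tumour difference from the controls was -6.11 ± 0.54 for Hoxc10 (adjusted p = 1.71e-06) and -4.83 ± 0.28 for Hoxa10 (adjusted p = 6.06e-08). Among the controls this removed before_activation 4 alone, the lone control low in both genes. It left the same controls as the choice by Hoxc10 and is no separate check.

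Other probe sets of the members were compared where they were above the low end. In tumours against controls a second probe set of Hoxd8 differed by -4.02 ± 0.32, of Hoxc6 by -2.19 ± 0.33, of Hoxb3 by -1.23 ± 0.20 and of Hoxa5 by -0.94 ± 0.32, all past the adjusted p of 0.05. Another Hoxc6 probe set (-0.43 ± 0.18, adjusted p = 0.0860) did not pass. Second probe sets of Hoxa9 (2.00 and 2.50), Hoxa10, Hoxb4 and Hoxc5 were at the low end in both groups and thus disagreed with the ones used. In other comparisons some calls also depended on the probe set. In 2M and 3M, second probe sets of Hoxa5 (-0.66 ± 0.21, adjusted p = 0.0465) and Hoxb3 (-0.56 ± 0.17, adjusted p = 0.0418) passed, unlike those used. In tumours against 4M and 5M, that of Hoxb3 passed (adjusted p = 0.000275), unlike the one used. Those of Hoxa5 (adjusted p = 0.158) and Hoxc6 (adjusted p = 0.0507) did not, while those used did. A transcript annotated as Hoxd3os1, from the opposite strand at Hoxd3, was at 4.87 in tumours and 7.52 in controls by 1 probe set (-2.65 ± 0.28, adjusted p = 4.1e-06) and at the low end by another.

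Genes that work with the Hox proteins moved in both directions in tumours against controls, where 19.5% of all genes rose and 20.6% fell. Of 8 measured Pbx, Meis and Pknox cofactors 1 rose and 3 fell: Meis2 from 9.93 to 5.36 (-4.57 ± 0.31, adjusted p = 6.89e-08), Meis1 from 9.79 to 7.60 (-2.18 ± 0.26), and Pbx3 rose from 8.45 to 10.53 (2.08 ± 0.25). Of 17 Polycomb genes 6 rose and 5 fell, with Ezh2 (2.92 ± 0.22, adjusted p = 1.76e-07) and Suz12 (1.91 ± 0.16), subunits of the complex that methylates histone H3 at lysine 27, and Phc1 (1.36 ± 0.15) having the smallest p. Of 10 measured Trithorax genes, partners and H3K27 demethylases 8 rose and 0 fell (0 lower at an unadjusted p under 0.05), among them Rbbp5 (1.08 ± 0.10), Dot1l (1.23 ± 0.17) and Psip1 (1.83 ± 0.26). The median differences were -0.20, 0.13 and 0.72 for these 3 lists, against -0.01 over all genes.

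Of 14 genes of retinoid signalling, a regulator of Hox genes in the embryo, 3 rose and 3 fell. These counts were near the shares over all genes (19.5% and 20.6%). The retinaldehyde dehydrogenase Aldh1a1 fell by 7.26 ± 0.69 (adjusted p = 1.42e-06), the receptor gene Rxrg by 3.63 ± 0.28 (adjusted p = 2.22e-07), and Rxrb rose by 0.66 ± 0.13. Of 13 homeobox genes that neighbour the clusters or belong to related families, such as Evx1 and Cdx2, 0 passed by limma in tumours against controls, and 0 were at an unadjusted p under 0.05. In 2M and 3M against the controls, 2 of 8 cofactors fell, 3 of 17 Polycomb genes rose and 1 fell, and 2 of 10 Trithorax genes and partners rose. Among all genes 7.79% rose and 9.04% fell there.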

How the data were processed

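According to the study's methods, the authors amplified total RNA in 2 rounds, hybridised it to Affymetrix Mouse Genome arrays and ran GCRMA background correction and normalization in GeneSpring GX. The intensity values the authors deposited are linear GCRMA summaries of 45101 probe sets. The deposited log2 table holds the same values minus each probe set's median, and both tables differed by at most 1.04e-06 after centring. The genome build was not given in the sources used here. GCRMA sets dim probe sets near a floor, so a fold change to or from the low end depends on that floor, and the number of arrays limits the precision. Depth does not apply to arrays.

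Here log2 of the intensities was used without filter. After 64 control probe sets were set aside, 45037 were tested with limma 3.58.1 (R 4.3.3) in a fit per comparison, two-sided, with Benjamini-Hochberg adjustment, and summarised in Python 3.11.15 with pandas 2.3.3. The fits were tested on simulated data first. Symbols came from GEO's platform annotation: 34945 probe sets had 1 symbol, 932 several and 9160 none. The members, gene lists and comparisons were chosen with earlier results of these data known. Named in full were, per cluster, the 3 genes with the highest overall mean, and in each comparison the 3 largest called differences in each direction. From each of the other lists the text takes at most 3 genes, those of lowest p in tumours against controls. The Hoxd3os1 transcript, the probe sets not used and the remaining members were added after values were seen.

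The labels number replicates 1 to 5 in every group, but nothing ties equal numbers together, so the fits had no replicate block. The study's text counts as many mice as arrays, so each array was taken as a mouse of its own. Alternatives were a replicate block, the methods' t-test, a minimum mean, an offset, quantile normalization, 1 fit over all groups, all probe sets of a gene, the centred table, either control group alone, array subsets and leaving out each array.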

Additional observations from a re-analysis of the deposited data

Results flagged for a closer look

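On 9 of the 112 sets of 5 arrays tested (14 named genes in 8 groups), 1 array lay far from the other 4, where chance alone gives about 1 in 20. In before_activation, replicate 4 had Hoxc10 at 3.00 and the others 9.61 to 11.06. In 1M, replicate 2 had Hoxa7 at 7.42 (others 6.45 to 6.60) and replicate 3 had Hoxb4 at 6.10 (others 5.93 to 5.96). In 3M, replicate 5 had Hoxb4 at 4.87 (others 5.76 to 5.93). In wild_type, replicate 2 was low in Hoxc4 at 8.83 (others 9.12 to 9.23) and high in Hoxd10 at 4.38 (others 2.99 to 3.31). Among the tumours, replicate 5 had Hoxa5 at 6.04 (others 6.37 to 6.47), replicate 1 had Hoxb5 at 2.46 (others 3.48 to 3.85), and replicate 3 had Hoxc6 at 3.56 (others 4.23 to 4.25).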

How the results depend on the processing

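The 33 Hox genes were recounted under each alternative, and no called gene changed direction in any. The shares of all genes called under the alternatives were not counted. All counts of higher genes stayed 0. In tumours against controls the count of 16 lower genes ran from 12 (before_activation alone) to 19 (1 fit over all groups), and in tumours against 4M and 5M the count of 13 ran from 11 to 15. The 10 genes at least 5-fold lower became 6 against before_activation alone.

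The counts in glands depended on the choice of controls and arrays. In 2M and 3M the 8 lower genes became 13 against wild_type alone, 2 against before_activation alone and 4 without arrays high in T cell markers. In 4M and 5M the 6 became 11 in 1 fit over all groups and against wild_type alone, 3 by the methods' t-test and on high Dap arrays, 2 without arrays high in T cell markers and also without those high in skeletal muscle markers, and 1 against before_activation alone and without the glands low in Hoxc10. At 1M the 0 became 1 with a mean of at least 5, 3 in 1 fit over all groups and 6 against wild_type alone. In before_activation against wild_type the 0 became 8 by the methods' t-test and 9 in 1 fit over all groups. The cause was not tested.

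Leaving out 1 array at a time gave 15 to 17 lower genes in tumours against controls (9 to 10 of them at least 5-fold), 11 to 15 against 4M and 5M, 6 to 11 in 2M and 3M, 3 to 7 in 4M and 5M (3 without wild_type replicate 1 or 3), 0 to 1 at 1M (1 without before_activation replicate 1 or 2) and 0 in before_activation against wild_type. The F test's 17 genes became 16 to 25, the latter without 5M replicate 5.

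With a replicate block the counts of lower genes were 16, 13, 9, 8, 0 and 0 in the 6 comparisons, 10 at least 5-fold lower and 18 by the F test, all within 1.5 times the counts without it. Deviations of arrays with the same number correlated by 0.057 on average over 140 pairs (from -0.453 to 0.692) and those of other numbers by -0.014, and 20 of 40 arrays correlated best with their own number, where 8 would if the number carried nothing. This is a hint from the data, not from the design, that some equal numbers share more than a name, and the correlation was not above 0.1 in every pair. Over 43 called differences and all settings, 1156 of 1285 refits kept the call and 129 lost it. All calls were kept for 11 genes in tumours against controls and for 8 against 4M and 5M, but for only 1 in each gland comparison.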
